A study of Mus musculus with 2 samples.

Results

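The Rorb neurons described here are excitatory neuronal nuclei of mouse hippocampal tissue that carry RNA of Rorb and Pdzrn3, and they numbered 98 of 37671 nuclei. They were chosen on measured values. A nucleus was kept if it had at least 500 detected genes and under 5% of its unique molecular identifiers (UMIs, counts of captured RNA molecules) from mitochondrial genes. It then needed at least 5 UMIs of Rorb, at least 2 of Pdzrn3 and at least 1 of the vesicular glutamate transporters Slc17a7 and Slc17a6 together. At most 1 UMI of the GABA-synthesis genes Gad1 and Gad2 and at most 3 of the astrocyte genes Slc1a3, Gja1 and Aqp4 were allowed. Nuclei with Prdm16 and 2 or more UMIs of Ano1 and Igfbpl1 were to be left out, but none was removed at that step. The nuclei came from droplet-based single-nucleus RNA sequencing of flash-frozen hippocampus at 8 months of age. Both groups carry the 5XFAD transgenes, which bear familial Alzheimer's disease mutations, include human APP and are driven in neurons by the Thy1 promoter. The mice of 1 library were 5XFAD, and those of the other were labelled 5XFAD x MR1 KO, in which MR1, the molecule that presents antigen to mucosal-associated invariant T cells, is knocked out per the label. Each library was 1 pool of 1 male and 1 female mouse, so there is 1 library per group and no test between them. Every interval below is a 95% interval for counting error only.

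Rorb encodes a nuclear receptor of the retinoid-related orphan receptor family, which binds DNA at a hexamer, AGGTCA, with an adenine- and thymine-rich flank. In the neocortex it is known as a gene of layer 4, the layer that receives sensory input from the thalamus, and of some layer 5 neurons, and it acts in the sorting of layer 4 neurons into barrels in the somatosensory cortex. Pdzrn3 encodes a ubiquitin ligase with PDZ domains. Bmpr1b encodes a type I receptor of bone morphogenetic proteins, which signals through Smad proteins with a type II receptor such as Bmpr2. In mm10 coordinates of the GENCODE M21 annotation, Rorb (ENSMUSG00000036192) lies on chromosome 19 from 18930605 to 19111196 on the minus strand. Pdzrn3 (ENSMUSG00000035357) lies on chromosome 6 from 101149609 to 101377897, and Bmpr1b (ENSMUSG00000052430) on chromosome 3 from 141837136 to 142169425, both on the minus strand.

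The upstream sequence of Bmpr1b is shown because this gene was named as a marker of the Rorb neurons and separated them into subgroups, as described below. It comes from RefSeq (GRCm38.p6, the build called mm10), at chr3:141931589-141931838 on the minus strand. It holds the 250 bases before an annotated start inside the span of the gene, with 0 bases in annotated exons. Among the annotated starts of Bmpr1b, this one was picked because its window holds the hexamer. The windows at chr3:141982265-141982514 and chr3:141931421-141931670, before other starts of the gene, do not hold it. Capitals mark the hexamer, 106 bases before the start. The window was picked for the hexamer alone, without regard to an adenine- and thymine-rich flank. The bases just before the hexamer here are mostly guanine and cytosine.
Bmpr1b upstream: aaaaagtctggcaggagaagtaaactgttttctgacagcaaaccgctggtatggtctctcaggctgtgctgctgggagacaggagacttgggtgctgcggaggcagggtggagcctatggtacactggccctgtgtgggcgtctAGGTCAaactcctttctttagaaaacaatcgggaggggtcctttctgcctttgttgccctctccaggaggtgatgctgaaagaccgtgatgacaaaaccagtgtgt
The letters AGGTCA or their reverse complement TGACCT were found in the 250 bases before 14% of the 32851 annotated starts in the RefSeq table. They were found at 4 of 26 starts (15.4%) of Rorb, Pdzrn3 and the leading genes of the clusters described below, of which 18 of 26 genes had an entry. The other starts with a match belonged to Trpm3, Maml2 and E130114P18Rik. A match is a run of letters, and binding was not measured.

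Depth and origin of the libraries bear on all values. The libraries held 25238 barcodes with 106861726 UMIs (5XFAD) and 26212 with 85678909 UMIs (labelled MR1 knockout), and 15408 and 22263 barcodes were kept, with medians of 4066 and 2767 UMIs. RNA of the targeted gene did not follow the label: Mr1 had 61 UMIs (0.749 CPM, the count scaled to 1000000 UMIs, interval 0.573 to 0.962) in the kept nuclei of the 5XFAD library and 93 (1.16 CPM, 0.937 to 1.42) in the other. A 3′ tag outside a deleted part would not show a knockout, so the second group is called the library labelled MR1 knockout. The Rorb neurons held 1 and 0 Mr1 UMIs. Barcodes present in both libraries numbered 182, and none of them was a Rorb neuron. A nucleus was assigned to the female mouse with at least 2 Xist UMIs and no UMI of 4 Y-linked genes, and to the male mouse with at least 1 such UMI and no Xist, and both mice of a library shared a capture.

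Of the 98 Rorb neurons, 85 were 5XFAD nuclei and 13 belonged to the library labelled MR1 knockout. They made up 0.552% (0.441 to 0.682) of the kept 5XFAD nuclei and 0.0584% (0.0311 to 0.0998) of the others, a ratio of shares of 0.106 (0.0542 to 0.191). The 5XFAD Rorb neurons came mostly from the male mouse of that pool. The male 5XFAD mouse gave 54 of 4122 assigned nuclei (1.31%, 0.986 to 1.71) and the female 5XFAD mouse 6 of 6561 (0.0914%, 0.0336 to 0.199), a male-over-female ratio of 14.3 (6.17 to 40.8). In the library labelled MR1 knockout the female mouse gave 11 of 11729 (0.0938%, 0.0468 to 0.168) and the male mouse 1 of 3668 (0.0273%, 0.00069 to 0.152). The remaining 25 and 1 Rorb neurons were assigned to neither mouse. The male 5XFAD mouse was thus high, and the intervals of the other 3 mice overlap. Between the female mice the ratio of the library labelled MR1 knockout over 5XFAD was 1.03 (0.348 to 3.38), and between the male mice it was 0.0208 (0.000517 to 0.121). The interval between the female mice excludes the ratio over all nuclei. With 1 mouse of each sex per library, mouse, sex and genotype cannot be told apart.

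The same mouse was high for another set of neurons with genes of deep cortical layers. Foxp2 and Tle4 neurons, cut by UMIs of these layer 6 genes with at most 4 Rorb UMIs, numbered 52 in the male 5XFAD mouse (1.26% of its nuclei, 0.944 to 1.65) and 10 in the female (0.152%, 0.0731 to 0.280). In the library labelled MR1 knockout they numbered 8 in the female mouse and 1 in the male. Dentate granule neurons, the principal cells of the dentate gyrus, showed the opposite order in the 5XFAD library, with 28 nuclei in the male mouse (0.679%, 0.452 to 0.980) against 252 in the female (3.84%, 3.39 to 4.33). Tshz2 neurons followed the order of the dentate granule neurons, with 27 nuclei in the male 5XFAD mouse against 266 in the female. Oligodendrocytes were 80 and 144 nuclei in the same 2 mice, a male-over-female ratio of shares of 0.884 (0.664 to 1.17). How much neighbouring cortex each dissection held was not measured, and its part in these shares was not tested.

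**Figure D1:**
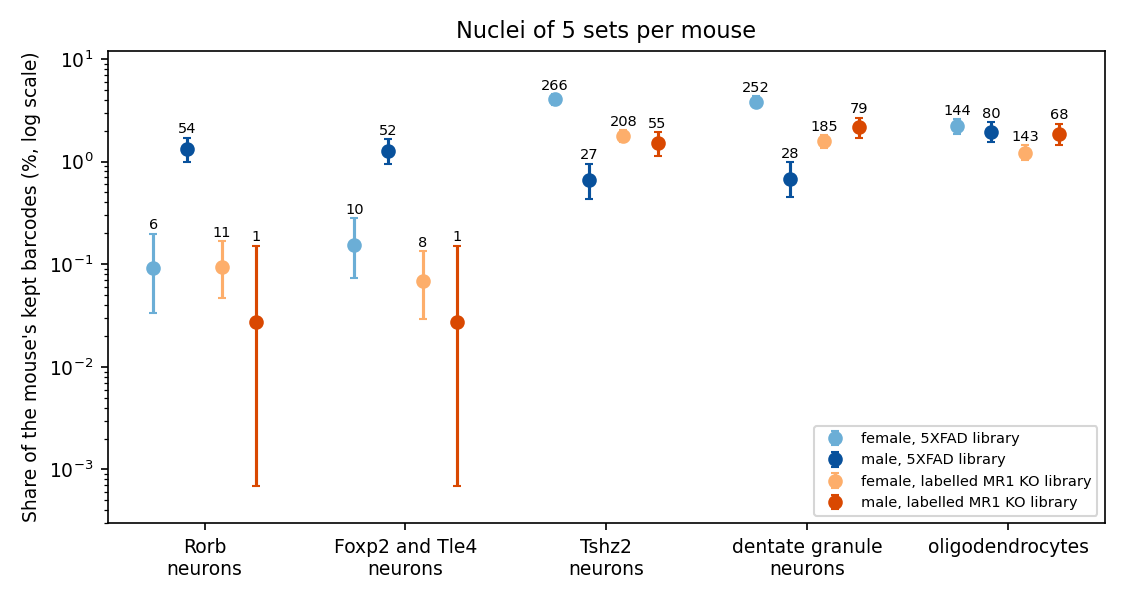
Share of each mouse's kept nuclei (percent, log axis) in the Rorb neurons and 4 comparison sets. Points are shares, bars are exact binomial 95% intervals, and the numbers over them are counts of nuclei. The male 5XFAD mouse stands above the other 3 mice in Rorb neurons (54 nuclei) and in Foxp2 and Tle4 neurons (52 nuclei), and below the female 5XFAD mouse in Tshz2 and dentate granule neurons.

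The step on Rorb left 326 and 109 nuclei, that on Pdzrn3 125 and 22, that on the glutamate transporters 109 and 17, and those on Gad1 and Gad2 and on astrocyte genes 90 and 16 and then 85 and 13. At the edge of the rule, 16 and 5 nuclei had exactly 5 Rorb UMIs, and 18 and 4 nuclei that met every other criterion had 4. The Rorb neurons were deep nuclei, with medians of 10912 UMIs (4266 to 40649) in the 5XFAD library and 8289 (2928 to 21247) in the other. When every kept nucleus was thinned to 6000 UMIs, which left out 10666 and 18914 shallower nuclei, 37 of 4742 (0.780%, 0.550 to 1.07) and 5 of 3349 (0.149%, 0.0485 to 0.348) met the rule. Of these, 28 were of the male 5XFAD mouse, 3 of the female 5XFAD mouse, and 4 and 1 of the female and male mice of the other library.

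The level of the genes that chose the nuclei is a description. Rorb had 882 UMIs (814 CPM, 761 to 870) in the 5XFAD nuclei, with 5 to 31 UMIs and a median of 8 per nucleus, and 91 UMIs (678 CPM, 546 to 832) in the other library, with 5 to 19 UMIs and a median of 6. Pdzrn3 stood at 565 CPM (521 to 611) and 656 CPM (526 to 808). Slc17a7, the vesicular glutamate transporter of cortical and hippocampal neurons, had a UMI in 84 of 85 and 12 of 13 nuclei, at 257 and 238 CPM. Slc17a6, the transporter typical of thalamic and other subcortical neurons, had 9 and 3 UMIs in all. Gad1 and Gad2 were allowed at most 1 UMI per nucleus and stood at 9.23 and 17.5 CPM in the 5XFAD nuclei.

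All 10 genes of the list of forebrain excitatory neurons, which holds Slc17a7 of the rule, had UMIs in each library, at a summed level of 2514 CPM (2421 to 2611) and 2332 CPM (2081 to 2605). The same list summed to 1545 CPM (1479 to 1613) and 1834 CPM (1755 to 1917) in the oligodendrocytes, where Slc17a7 was at 0 by their rule, which is the background for this list. Mef2c, a transcription factor of cortical excitatory neurons, stood at 1053 CPM (993 to 1116) and 961 CPM (802 to 1142), and Camk2a, a kinase of excitatory synapses, at 472 and 454 CPM.

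The layer 4 list was carried by few of its genes. Rorb itself and Il1rapl2, a synaptic adhesion protein of the interleukin-1 receptor family, made up most of its 1433 and 1810 CPM. Cux1, also on the list, had 146 UMIs (135 CPM) in 54 of 85 nuclei and 8 UMIs (59.6 CPM) in 4 of 13. Whrn, which encodes whirlin, had 35 UMIs (32.3 CPM) and 1 UMI. Rspo1, a secreted activator of Wnt signalling, had 8 UMIs and 1 UMI, Scnn1a, a sodium channel subunit often used to mark layer 4, 1 and 1, and Endou 1 and 0. Hsd11b1 had 6 and 0 UMIs, and Batf3 had none in either library. Of the thalamic list Rora, the nuclear receptor closely related to Rorb, was high at 1125 CPM (1063 to 1190) and 1550 CPM (1346 to 1775), while Lef1, Gbx2 and Zic4 were at 0 in both libraries and Tcf7l2 had 4 and 0 UMIs. The label is therefore used only as the name of the rule, and the nuclei are called Rorb neurons and not layer 4 neurons.

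Bmpr1b, the third marker named for these neurons, was in a minority of them. It had 189 UMIs in 28 of the 85 5XFAD nuclei (174 CPM, 150 to 201, 0 to 21 UMIs per nucleus) and 1 UMI in 1 of the 13 others (7.45 CPM, 0.189 to 41.5). By mouse the 5XFAD counts were 144 UMIs in the male, 0 in the female and 45 in nuclei of neither, and the single UMI of the other library was in its female mouse. Foxp2 and Tle4 neurons had Bmpr1b too, at 119 and 247 CPM in the 2 libraries. In oligodendrocytes it stood at 26.8 and 11.1 CPM, with a UMI in 4.40% and 2.44% of nuclei of median depths of 1898 and 1452 UMIs, as a measure of free RNA.

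**Figure D2:**
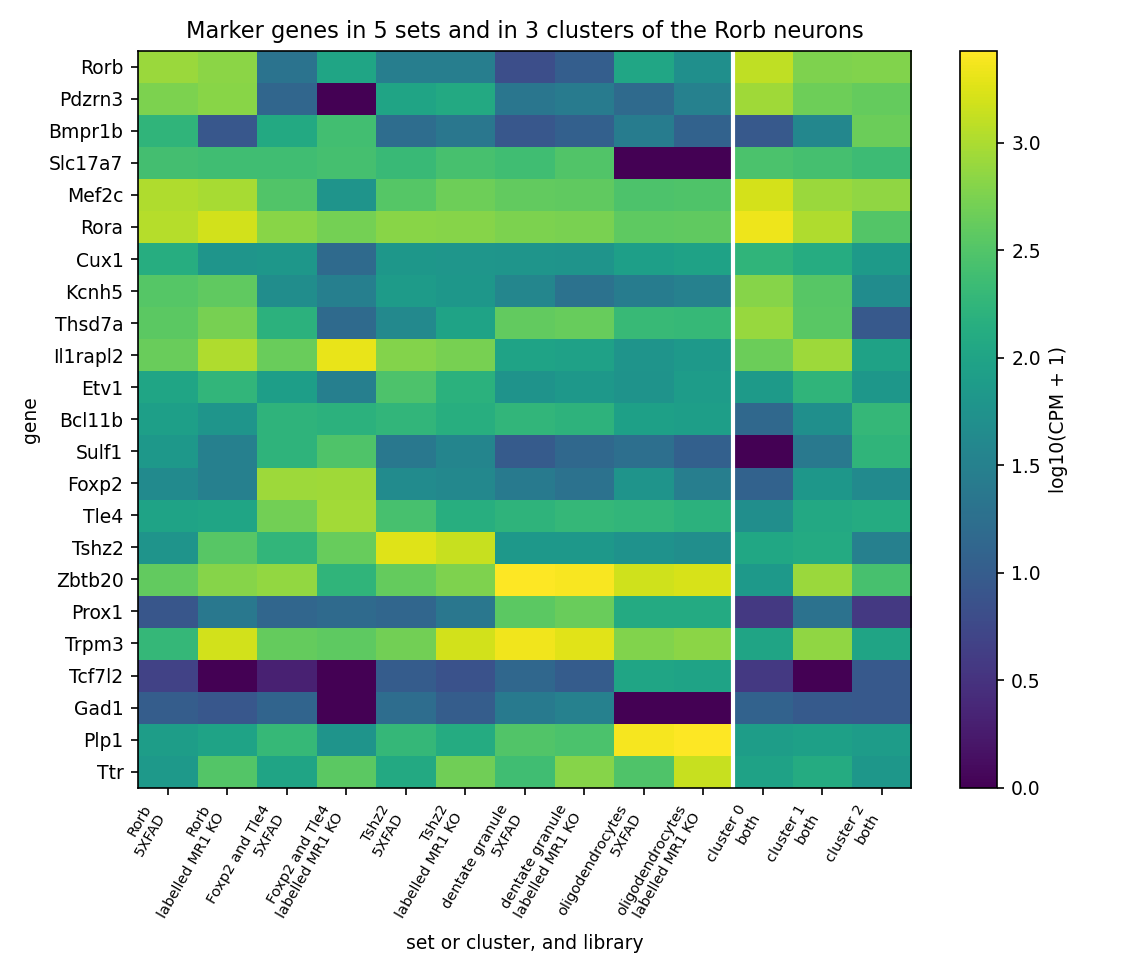
Level of 23 genes, as log10(CPM + 1), in 5 sets of nuclei per library (left of the white line) and in the 3 clusters of the Rorb neurons over both libraries (right). Rorb and Pdzrn3 are high in the Rorb neurons because the rule used them, and Bmpr1b is high in cluster 2 at 457 CPM.

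Among genes with at least 100 UMIs in the Rorb neurons of each library, 15 had the largest level relative to all other kept nuclei, a description since the rule chose the nuclei. Dpp10, a modulator of Kv4 potassium channels, stood at 9053 CPM in the 5XFAD Rorb neurons against 2154 CPM in the rest of that library, and at 6094 against 1412 CPM in the other. Ptprd, a receptor phosphatase that organises synapses, stood at 11005 against 3391 CPM and at 13767 against 3120 CPM. The potassium channel gene Kcnh7 (2303 against 781 CPM in the 5XFAD library), the carbonic anhydrase-like gene Car10 (1176 against 346 CPM) and the ErbB ligand gene Nrg1 (3597 against 1423 CPM) were among the others, with Il1rapl2, Chsy3, Mef2c, Sgcz, R3hdm1, Rora, Cntn4, Pdzrn4, Oxr1 and Gpr158. Each of the 15 was above the rest in both libraries.

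Across the 10 combinations of set and library, the genes whose level ran most like that of Rorb were Cnr1 (Pearson r = 0.933 on the log scale), Cdh10 (0.913) and Phactr3 (0.909). Cnr1, the cannabinoid receptor gene, stood at 110 and 112 CPM in the Rorb neurons. The points share libraries, and the Rorb neurons were chosen on Rorb, so these values are descriptions.

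The Rorb neurons were not uniform. Clustered without the rule genes, Y-linked and mitochondrial genes, Xist and Tsix, they fell into 3 clusters. These were numbered 0 to 2 and held 38, 32 and 28 nuclei. The clustering used the genes described next, so their levels carry no test. When only genes detected in at least 5 of the nuclei were used, 82 of 98 nuclei stayed with their cluster, and 11 nuclei of cluster 1 joined cluster 0. Rorb stood at 1274 CPM in cluster 0, at 587 CPM in cluster 1 and at 597 CPM in cluster 2, and Pdzrn3 at 877, 463 and 416 CPM. The clustering did not use these 2 genes, but the rule set a minimum count of each. A minimum count is a higher CPM in a shallower nucleus, and the clusters had median depths of 9342, 13726.5 and 13740.5 UMIs. The levels are therefore a description, and the part of depth in them was not tested. Of 3981 genes with at least 50 UMIs over the clusters, 228 (5.73%) differed by at least 3-fold between the highest and the lowest cluster, with 0.5 added to each count.

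Cluster 0 held 36 nuclei of the 5XFAD library and 2 of the other, and 28 of the 38 were of male mice. It was led by Gm20752, a long noncoding RNA gene, at 135 CPM against 14.2 CPM in the other nuclei. Nuak1, an AMPK-related kinase gene that acts in axon branching, stood at 135 against 27.2 CPM, and Kcnk2, the leak potassium channel TREK-1, at 351 against 77.9 CPM. A830036E02Rik (181 against 46.0 CPM) is an antisense gene, and its reads cannot be told apart from those of its partner where the strand setting is not given. Mef2c (1638 CPM), Rora (2186 CPM), Whrn (75.6 CPM) and Cux1 (175 CPM) were also highest in cluster 0. The 8 upper-layer genes, which leave out Cux1, summed to 162 CPM (124 to 208) in cluster 0 and 249 CPM (207 to 299) in cluster 1. In cluster 2 they summed to 67.6 CPM (43.7 to 99.7). Both-sex RNA was present in 2 nuclei of cluster 0, and Scrublet, a doublet caller, marked none of that cluster.

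Cluster 2 held 27 nuclei of the 5XFAD library and 1 of the other, and 20 were of the male 5XFAD mouse. Bmpr1b led it, with 169 of its 190 UMIs in 19 of the 28 nuclei (457 CPM against 24.8 CPM in the other nuclei). Next came Sulf1, a sulfatase gene of layer 6 neurons that edits heparan sulfate (173 against 13 CPM), and Npsr1, the neuropeptide S receptor gene (470 against 37.8 CPM). Ndst4, a heparan sulfate sulfotransferase gene (516 against 48.4 CPM), Adam12, a metalloprotease gene (111 against 13 CPM), and Tenm3, a teneurin of synaptic target recognition (1762 against 230 CPM), followed. Bcl11b, a factor of deep-layer projection neurons, was at 189 CPM in cluster 2 against 13.5 CPM in cluster 0, while Cux2, an upper-layer factor, had no UMI there. Foxp2 stood at 10.8, 65.0 and 43.2 CPM in clusters 0, 1 and 2. RNA of both sexes was present in 3 of the 28 nuclei, and Scrublet marked 8.

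Cluster 1 held 22 nuclei of the 5XFAD library and 10 of the 13 of the other, 9 of them of its female mouse. It was led by Dach1, a transcription factor gene (115 against 5.4 CPM), Trpm3, a calcium-permeable channel (715 against 99.9 CPM), Epha3, an ephrin receptor of axon guidance (140 against 20.3 CPM), and Erbb4, the neuregulin receptor (195 against 36.5 CPM). Zbtb20, a transcription factor of hippocampal neurons and astrocytes, stood at 830 against 167 CPM, and Trpm3 and Zbtb20 were both high in dentate granule neurons (Trpm3 at 2284 CPM in the 5XFAD library). Of the 32 nuclei, 13 carried RNA of both sexes, all but 1 of them in the 5XFAD library, and Scrublet marked 11. The part of such nuclei in the levels of cluster 1 was not tested. The median depth of the cluster was 16756 UMIs in the 5XFAD library, against 9342 in cluster 0 and 13846 in cluster 2.

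**Figure D3:**
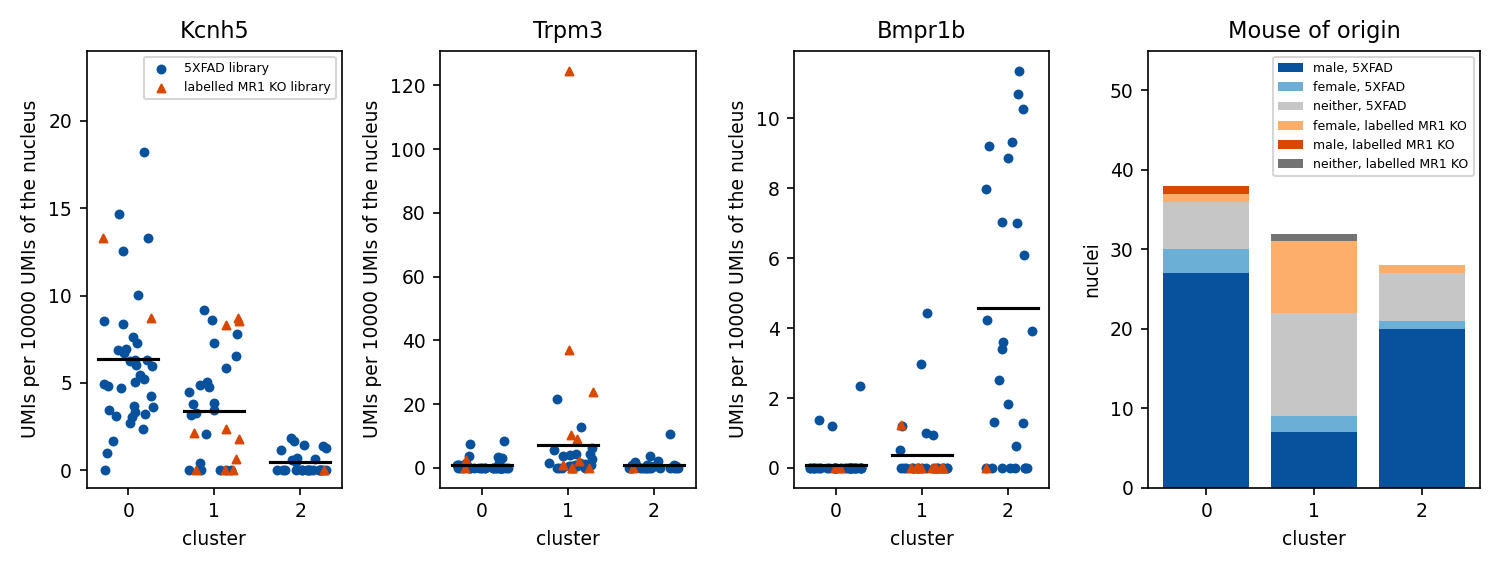
UMIs of Kcnh5, Trpm3 and Bmpr1b per 10000 UMIs of each nucleus in the 3 clusters (points are nuclei, black bars the cluster's summed level), and the number of nuclei of each mouse per cluster. Kcnh5 is high in cluster 0 and low in cluster 2, Bmpr1b the reverse, and 1 nucleus of the library labelled MR1 knockout holds 101 of its 209 Trpm3 UMIs.

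The gene lists differed in how many of their members separated the clusters, a description since the clustering used these genes. Of the 15 ionotropic glutamate receptor genes with at least 50 UMIs, 6 differed by at least 3-fold between clusters, against 5.73% of all genes. The kainate receptor subunit genes were among them. Grik1 stood at 167 CPM (128 to 215) in cluster 0, 140 CPM (109 to 178) in cluster 1 and 8.11 CPM (1.67 to 23.7) in cluster 2. Of its 67 UMIs in cluster 1, 46 were in 1 nucleus, and without that nucleus the level was 46.1 CPM. Grik3 stood at 18.9 CPM (7.60 to 38.9), 58.7 CPM (39.0 to 84.8) and 308 CPM (254 to 370). Grik4 was nearly missing from cluster 0, with 2 UMIs (5.4 CPM, 0.654 to 19.5), and stood at 203 CPM (165 to 248) in cluster 1 and 114 CPM (81.8 to 153) in cluster 2. The AMPA receptor subunit genes also differed in order, with Gria4 at 1805, 809 and 492 CPM and Gria3 at 429, 1052 and 1824 CPM. None of the 18 postsynaptic scaffold genes and none of the 13 genes of GABA-A receptors and chloride transport passed 3-fold. These lists are too small to set apart from the 5.73% of all genes.

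Of 24 potassium channel genes, 6 (25%) passed 3-fold between clusters, against 5.73% of all genes. Kcnh5, a voltage-gated channel of the ether-à-go-go family, stood at 637 CPM (558 to 724) in cluster 0, at 340 CPM (289 to 396) in cluster 1 and at 45.9 CPM (26.8 to 73.6) in cluster 2. It had a UMI in 37 of 38, 24 of 32 and 10 of 28 nuclei. Kcnn2, a small-conductance calcium-activated channel gene, ran the other way, at 54.0, 166 and 281 CPM. Of 17 sodium, calcium and HCN channel genes none passed 3-fold, a list too small to set apart from that share. Thsd7a, which is on none of the lists and was chosen after its values were seen, stood at 793, 358 and 8.11 CPM.

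Of 24 axon guidance genes 7 (29.2%) passed 3-fold, and 5 of 19 cadherin genes (26.3%) did, against 5.73% of all genes. Sema3e, a secreted semaphorin, stood at 10.8, 75.5 and 216 CPM in clusters 0, 1 and 2, and the membrane-bound Sema6d at 86.4, 161 and 543 CPM. The semaphorin co-receptor Nrp1 was low in cluster 0 (13.5 CPM) and higher in clusters 1 and 2 (132 and 100 CPM). Epha4, a receptor of ephrins, was highest in cluster 0 (383, 233 and 111 CPM). Cdh13 (86.4, 153 and 654 CPM) and Cdh9 (21.6, 214 and 327 CPM) were highest in cluster 2, and Pcdh15 (1878, 960 and 292 CPM, the last 169 CPM without 1 nucleus) in cluster 0. Of 10 genes of neuropeptides and secreted factors, 4 passed 3-fold, against 5.73% of all genes. Nrg1, whose receptor gene Erbb4 led cluster 1, stood at 6223, 3448 and 1621 CPM. In the BMP list, which is too small to set apart from that share, 1 of 6 genes passed 3-fold, which was Bmpr1b. The related type I receptors Bmpr1a (56.7, 73.4 and 59.5 CPM) and Acvr1 (43.2, 92.2 and 89.2 CPM) and the type II receptor Bmpr2 (108, 103 and 89.2 CPM) did not.

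The comparison of the libraries within the Rorb neurons rests on 1083360 UMIs in 85 nuclei and 134235 UMIs in 13 nuclei, so that 1 UMI is worth 0.923 and 7.45 CPM. In all ratios below the level in the 13 nuclei is divided by that in the 85. A gene was counted at a ratio of at least 1.5 or at most 1/1.5, with at least 100 UMIs over both libraries. Of 1996 such genes, 139 (6.96%) were higher and 269 (13.5%) lower in the library labelled MR1 knockout, and their median log2 ratio was -0.0045. When counts of the same depth were drawn from a Poisson model, 9.89% of unchanged genes passed 1.5-fold in either direction, against 20.4% here. Counting error alone thus passes many genes at this ratio. The libraries also differ here in cluster, since 10 of 13 nuclei were in cluster 1 against 22 of 85, and in mouse, since 11 of 13 were of a female mouse against 6 of 85. The sides of cluster 1 are unlike too. Of its 22 5XFAD nuclei, 12 carried RNA of both sexes and Scrublet marked 10, against 1 and 1 of the 10 others. The part of such nuclei in the ratios of cluster 1 was not tested. In cluster 1 alone (22 against 10 nuclei), 659 genes had at least 100 UMIs, and 32 (4.86%) were higher and 107 (16.2%) lower. Of the 139 and 269 genes, 132 and 261 lay on the same side of 1 in cluster 1 alone, and 86 and 207 at the same ratio or beyond. As the nuclei of cluster 1 are part of both counts, this is a description. Between the female mice (6 against 11 nuclei) 189 genes had that many UMIs, and 24 (12.7%) were higher and 19 (10.1%) lower. In Tshz2 neurons, with 2682558 and 2251714 UMIs, 9% of 6920 genes passed 1.5-fold in either direction, against 20.4% in the Rorb neurons, which have fewer UMIs.

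**Figure D4:**
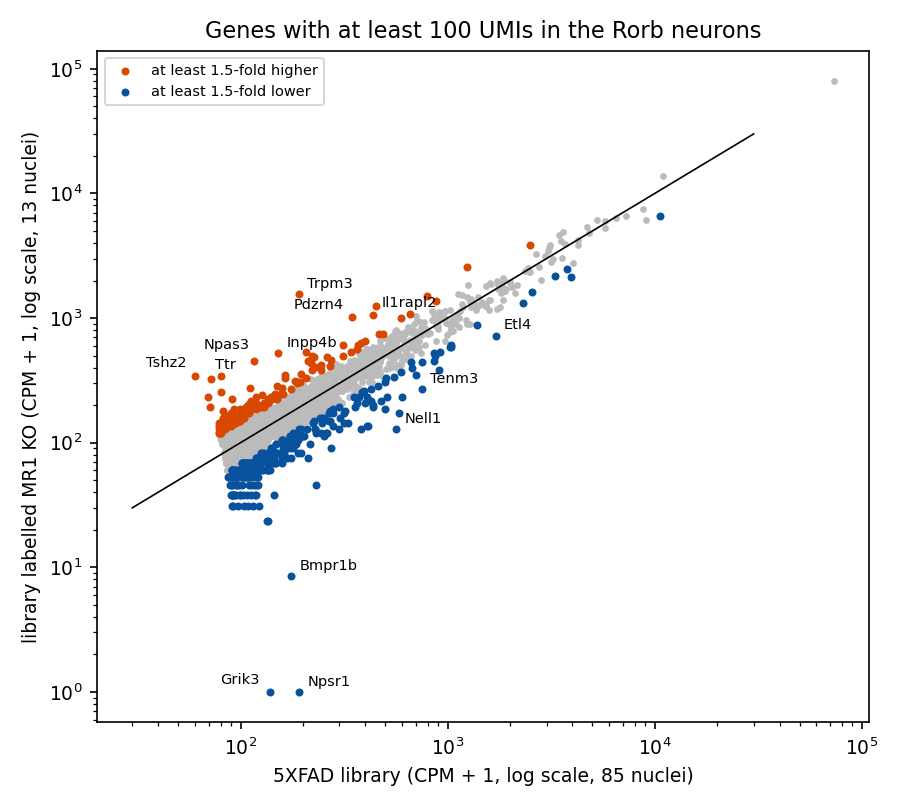
CPM + 1 of the 1996 genes with at least 100 UMIs in the Rorb neurons, 5XFAD library on the x axis and library labelled MR1 knockout on the y axis (both log). Orange and blue points are the 139 genes at least 1.5-fold higher and the 269 at least 1.5-fold lower, and the line marks equal levels. Npsr1 and Grik3 lie at the lower edge with 0 UMIs in the 13 nuclei.

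Markers of other cell types were present in the Rorb neurons of both libraries. The 6 retrosplenial and subicular genes summed to 306 CPM (274 to 341) in the 85 nuclei and to 663 CPM (532 to 816) in the 13, with 5 and 4 detected and Cbln1 at 0 in both. The 8 upper-layer genes summed to 154 CPM (132 to 179) and 276 CPM (194 to 380), with 8 and 6 detected. The 11 inhibitory genes summed to 427 CPM (389 to 468) in the 85 nuclei, all 11 detected, and to 633 CPM (506 to 783) in the 13, with 7 detected and Gad2, Dlx1, Dlx6os1 and Vip at 0. Erbb4, which also led cluster 1, stood at 79.4 and 253 CPM within those sums. The 10 hippocampal genes summed to 846 CPM (792 to 902) and 1043 CPM (877 to 1231), with 9 and 6 detected. The 10 astrocyte genes summed to 1086 CPM (1024 to 1149) and 1110 CPM (939 to 1303), with Aqp4 and Slc7a10 at 0 in the 13 nuclei. The 9 microglial genes summed to 230 CPM (202 to 260) and 343 CPM (251 to 457), with Tmem119 at 0 in the 13. The 9 oligodendrocyte genes summed to 215 and 276 CPM, and their intervals overlap. The 9 striatal genes were lower in the 13 nuclei, at 1206 CPM (1142 to 1274) and 1006 CPM (843 to 1190), with 9 and 5 detected. The 10 layer 6 genes were lower too, at 228 and 194 CPM. The 8 layer 5 genes summed to 349 and 417 CPM and the 6 oligodendrocyte precursor genes to 251 and 261 CPM. The intervals of the 2 libraries overlap for the hippocampal, astrocyte, microglial, striatal, layer 6, layer 5 and oligodendrocyte precursor lists. They do not overlap for the retrosplenial and subicular, upper-layer and inhibitory lists, which were higher in the 13 nuclei. The rule capped Gad1 and Gad2 of the inhibitory list and Slc1a3, Gja1 and Aqp4 of the astrocyte list. Low or 0 counts of these genes were thus set by the selection. The part of RNA from these cell types in the ratios was not tested. Cldn5, Pecam1 and Rgs5, which define vascular cells, were at 0 in both libraries.

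The genes named next had the same direction in female and in male mice, as 992 of the 1996 genes did, and the interval bounds farthest from 1. The male side of that condition is weak, since the library labelled MR1 knockout held 1 male Rorb neuron with 16110 UMIs. Tshz2, a zinc finger factor of retrosplenial and subicular neurons, had 64 UMIs (59.1 CPM) in 19 of 85 nuclei and 46 UMIs (343 CPM) in 10 of 13, a ratio of 5.80 (3.88 to 8.61). Of those 46 UMIs, 21 were in the single male nucleus, and in cluster 1 alone the ratio was 2.34 (1.32 to 4.06). Pdzrn4, a relative of Pdzrn3, stood at 344 CPM (310 to 381) and 1013 CPM (850 to 1198), which gave a ratio of 2.94 (2.40 to 3.59), with 37 of 136 UMIs in 1 nucleus. Its ratio was 2.86 (1.75 to 4.93) between the female mice and 2.63 (2.02 to 3.40) in cluster 1. Npas3, a transcription factor gene, stood at 114 and 447 CPM (ratio 3.91, 2.82 to 5.36), and Inpp4b, a phosphoinositide phosphatase gene, at 151 and 521 CPM (3.44, 2.57 to 4.58). Both were also higher in cluster 1 alone, at 2.81 (1.95 to 4.04) and 2.88 (2.05 to 4.02).

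Fgf13, an intracellular regulator of sodium channels, had a ratio of 3.38 (2.15 to 5.21). Raver2, an RNA-binding protein gene, had 2.76 (1.70 to 4.36), which was 1.12 (0.566 to 2.06) in cluster 1 alone. Nkain3 (2.62, 1.98 to 3.43), Zfpm2, a GATA cofactor (2.27, 1.71 to 2.99), and Tafa1, a secreted neurokine gene (2.05, 1.81 to 2.31), complete the higher genes with Ttr. Ttr, the thyroxine carrier made by the choroid plexus, stood at 71.1 CPM (56.1 to 88.8) and 320 CPM (232 to 431), which gave a ratio of 4.51 (3.03 to 6.63). It was also higher in the other sets, with ratios of 3.65 in Foxp2 and Tle4 neurons, 4.04 in Tshz2 neurons, 2.70 in dentate granule neurons and 4.45 in oligodendrocytes, where it reached 309 and 1376 CPM. The choroid plexus list had UMIs of 2 and 1 of its 5 genes in the Rorb neurons, with Folr1, Kl and Otx2 at 0 in both libraries.

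Npsr1 and Grik3 had no UMI in the library labelled MR1 knockout, where 3 UMIs would be 22.3 CPM. Npsr1 (chromosome 9, 24097996 to 24316398) had 206 UMIs in 17 of 85 nuclei (190 CPM, 165 to 218) and was at least 8.51-fold lower against that floor, while the exact interval of its ratio reached up to 0.146. Grik3 (chromosome 4, 125490700 to 125714173) had 149 UMIs in 40 of 85 nuclei (138 CPM, 116 to 161) and was at least 6.15-fold lower against the floor, with an interval up to 0.202. Both were leading or high genes of cluster 2, of which the library labelled MR1 knockout held 1 nucleus. In cluster 1 alone they had 31 (22 of them in 1 nucleus) and 28 UMIs in the 5XFAD nuclei and 0 in the others, where the upper bounds of the ratios were 0.463 and 0.516. Bmpr1b, with 189 UMIs and 1 UMI, had a ratio of 0.0427 (0.00108 to 0.241), and in the female mice it had 0 and 1 UMIs, so that it was not among the genes chosen by the rule.

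Meis2, a homeobox factor gene, had 249 UMIs in 54 of 85 nuclei and 6 UMIs in 4 of 13 nuclei, a ratio of 0.194 (0.0707 to 0.429), and its ratio was also below 1 in Foxp2 and Tle4 neurons (0.524), Tshz2 neurons (0.472), dentate granule neurons (0.510) and oligodendrocytes (0.485). Meis2 is on the striatal list, and the sum of that list was lower in these sets too. It was 1859 and 756 CPM in Foxp2 and Tle4 neurons and 928 and 600 CPM in Tshz2 neurons. In dentate granule neurons it was 658 and 449 CPM, and in oligodendrocytes 830 and 380 CPM. The part of striatal RNA in the ratio of Meis2 was not tested. Nell1, a secreted glycoprotein gene, stood at 565 CPM (521 to 611) and 127 CPM (73.8 to 203), which gave a ratio of 0.224 (0.130 to 0.362). It was 0.324 (0.181 to 0.540) in cluster 1 and 0.374 (0.172 to 0.796) between the female mice. Slit2, an axon guidance ligand gene, stood at 414 CPM (376 to 454, 75 of 85 nuclei) and 134 CPM (79.5 to 212), which gave a ratio of 0.324 (0.190 to 0.518). Tenm3 (0.358, 0.249 to 0.50) was 0.681 (0.406 to 1.09) in cluster 1 alone. Etl4, which had UMIs in all 98 nuclei, was at 0.424 (0.342 to 0.521) and at 0.654 (0.509 to 0.832) in cluster 1. Tmem132d (0.330), Lrtm1 (0.167) and the noncoding gene Gm10754 (0.166) complete the lower genes, the last 2 with 3 UMIs each in the library labelled MR1 knockout.

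**Figure D5:**
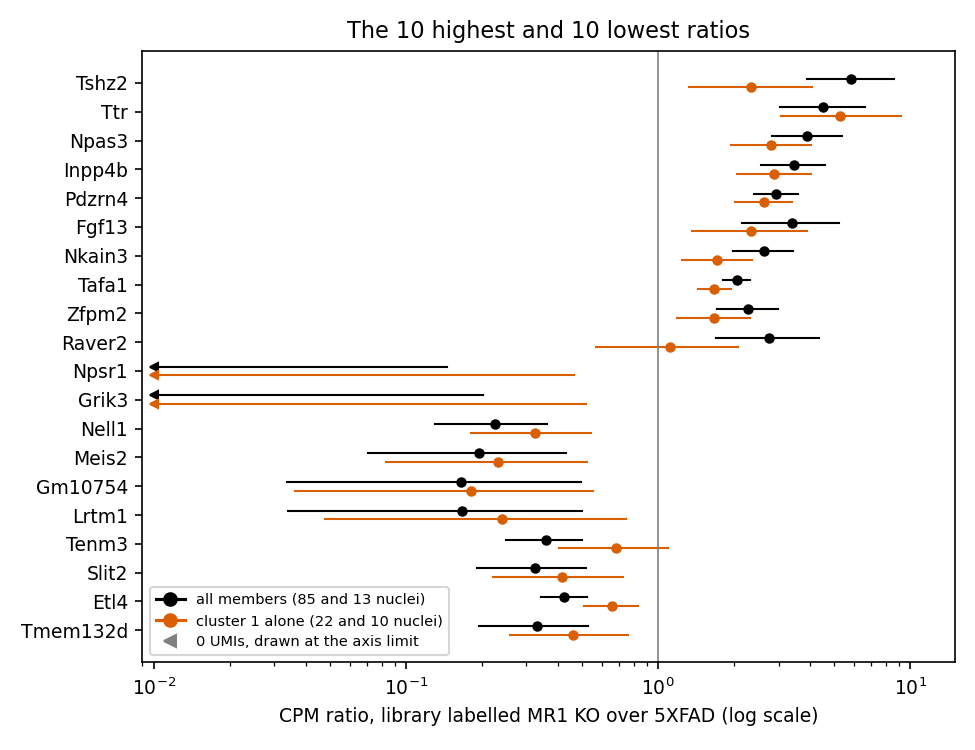
CPM ratios (log axis) of the 10 higher and 10 lower genes with exact 95% intervals, over all Rorb neurons (black) and in cluster 1 alone (orange). All 20 lie on the same side of 1 in both, and the cluster 1 intervals of Raver2 and Tenm3 cross 1.

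Trpm3 had the highest ratio of the genes with at least 100 UMIs and UMIs in each library, and it was chosen after its values were seen. It had 206 UMIs in 39 of 85 nuclei (190 CPM, 165 to 218) and 209 UMIs in 8 of 13 nuclei (1557 CPM, 1353 to 1783), a ratio of 8.19 (6.72 to 9.97). A single nucleus held 101 of the 209 UMIs, and the male nucleus had none. The direction turned with at least 8 Rorb UMIs (log2 ratio -1.83), after thinning (-0.22) and in male mice (-1.96). Il1rapl2 stood at 436 CPM (397 to 477, 34 of 85 nuclei) and 1050 CPM (884 to 1239, 11 of 13 nuclei), which gave a ratio of 2.41 (1.98 to 2.92). Its direction turned between the female mice, at 0.866 (0.594 to 1.28), and in cluster 1 alone, at 0.607 (0.452 to 0.804), and 58 of its 141 UMIs in the library labelled MR1 knockout were in the 10 nuclei of cluster 1. The single male nucleus held 45 of them.

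Gene lists were set beside all 7357 genes with at least 20 UMIs, of which 3574 were higher and 3783 lower. Their median log2 ratio was 0.07 with a prior count of 0.5 added in each library, which raises the ratio of genes with few UMIs in the 13 nuclei, so list medians are to be read against 0.07 and not 0. The potassium channel list had a summed level of 24879 and 18058 CPM, with a ratio of 0.726 (0.696 to 0.757). Of its 19 genes with at least 100 UMIs, 5 were at least 1.5-fold lower and 2 at least 1.5-fold higher, against 13.5% and 6.96% of all genes. These numbers are too small to set apart from those shares. Kcnip4, a Kv4 channel subunit gene, made up much of that sum, at 10577 CPM (10384 to 10773) and 6638 CPM (6209 to 7088), and its ratio was 0.628 over all nuclei, 0.545 between the female mice, 0.608 in cluster 1 and 0.970 (0.821 to 1.14) between the male mice, where the library labelled MR1 knockout has 1 nucleus. Kcnq5 (0.637, 0.552 to 0.731), Kcnh7 (0.576, 0.492 to 0.671) and Kcnt2 (0.497, 0.362 to 0.668), voltage- and sodium-gated channel genes, were lower too, but not between the male mice, where the ratios were 1.26 (0.931 to 1.67), 1.82 (1.41 to 2.32) and 1.14 (0.619 to 1.93). The list's median log2 ratio was -0.04, which sets the many genes of low count beside these few.

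Glutamate receptor genes lay on both sides of 1. Of 14 ionotropic genes with at least 100 UMIs, 2 were at least 1.5-fold higher and 2 lower, against 6.96% and 13.5% of all genes. These numbers are too small to set apart from those shares. The summed ratio of the ionotropic list was 0.932 (0.882 to 0.984). Grik1 stood at 79.4 CPM (63.5 to 98.0) and 343 CPM, but all 46 UMIs of the library labelled MR1 knockout were in 1 of its 13 nuclei, so that its ratio of 4.32 (2.95 to 6.25) is that of a single nucleus. By contrast, Gria2 (0.862, 0.754 to 0.983) and Grin2b (0.976, 0.847 to 1.12), subunits of the main AMPA and NMDA receptors, stayed within 1.5-fold. The metabotropic receptor gene Grm8 was higher (1.65, 1.29 to 2.09), and Grm5 was at 0.962 (0.842 to 1.1). In the axon guidance list 5 of 18 genes were lower (13.5% of all genes), a number too small to set apart from that share. They were Slit2, Plxna2, Epha4, Sema3e and Sema6d. Sema3e and Sema6d were highest in cluster 2, of which the 13 nuclei hold 1. Sema6d turned between the female mice and Epha4 after thinning. The list held 1 higher gene (6.96% of all genes), the netrin receptor gene Unc5d (796 and 1512 CPM, ratio 1.90, 1.62 to 2.22). It was 0.854 (0.424 to 1.54) between the male mice. Unc5d was also higher in the other sets, with ratios from 1.45 in Tshz2 neurons to 3.50 in Foxp2 and Tle4 neurons. In the BMP list Chrd, the gene of the BMP antagonist chordin, had 59 UMIs and 1 UMI (ratio 0.137, 0.00341 to 0.792), and Bmpr2 had a ratio of 1.40 (0.797 to 2.32).

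App, the amyloid precursor gene, stood at 594 CPM (549 to 641) and 499 CPM (387 to 634), which gave a ratio of 0.841 (0.644 to 1.08), and how reads of the human transgene were counted is not given in the sources used here. Thy1 had a ratio of 1.12 (0.818 to 1.5). In the list of amyloid precursor and secretase genes none of 4 passed 1.5-fold, against 20.4% of all genes, and neither did any of 10 genes of neurofilaments and neurite proteins, a number too small to set apart from that share. These held the reticulon genes Rtn1 (1.38, 1.09 to 1.72) and Rtn3 (1.33, 1.06 to 1.65). The summed lysosome list was at 1.20 (1.04 to 1.38), with Psap, the saposin precursor gene, at 1.78 (1.14 to 2.70) over all nuclei and 0.504 (0.0126 to 2.89) in male mice. Motor protein genes summed to 1.02 (0.911 to 1.15) and synaptic vesicle genes to 0.995 (0.942 to 1.05). Interferon response genes were too few to compare, with 1 of 23 at 20 UMIs or more, and 4 of 22 genes of MHC class I and peptide loading reached that count.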

How the data were processed

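Nuclear RNA of flash-frozen hippocampus was sequenced by 3′ droplet chemistry (10x Genomics v3.1), per the labels' protocols. The deposited files hold raw counts, whole UMI counts per gene and barcode, made by the authors with Cell Ranger 7.0.0 per the file headers. The submitters' processing notes name mm10 and Seurat; no source used here gives the annotation, the strand setting or whether introns were counted. The files' 32285 gene IDs matched GENCODE M21 for 32158, which gave coordinates.

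Each group has 1 library (n = 1), so no test was run and no cell annotation was used. UMIs were summed over nuclei and scaled to CPM. Ratios carry exact conditional binomial intervals, shares Clopper-Pearson and CPM Poisson intervals, all at 95% and for counting error only. The floor for a count of 0 was 3 counts per summed set. Comparison sets were cut by UMIs: Foxp2 at least 5 and Tle4 at least 2; Tshz2 at least 5; Prox1 at least 2 with Slc17a7; and oligodendrocyte genes at least 5. Clusters (scanpy 1.11.5, Leiden) used 2000 variable genes, 20 components, 15 neighbours and a resolution of 0.5. Doublets were marked with Scrublet with a threshold set from 0.8% per 1000 barcodes (20.2% and 21.0% expected, 20.9% and 21.5% of kept barcodes marked) but were not removed in the main values. Nuclei with RNA of both sexes were 8.52% and 5.95% of kept barcodes, and 17 of 85 and 1 of 13 Rorb neurons.

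The named genes were the 10 highest and 10 lowest by the interval bound nearest to 1, with at least 100 UMIs and 1 direction in both sexes, the 15 genes highest against other nuclei, up to 8 genes most like Rorb, up to 4 genes of each list and 8 leading genes of each cluster. Y-linked and mitochondrial genes, Xist, Tsix and the rule genes were left out. Other X-linked genes stayed in, among them Fgf13 and Il1rapl2. Members, lists and rules were chosen with earlier results of these data known. List medians used genes with at least 20 UMIs and a prior count of 0.5. The calculation was run on summed counts drawn from a Poisson model for 2004 genes of this comparison. It called 100% of genes raised 3-fold, 94% of genes lowered 3-fold and 9.89% of unchanged genes, and 96.8% of intervals held the true ratio. The intervals assume the same model, and the draws left out differences between nuclei and mice. This share therefore checks the calculation only and not the intervals on the real nuclei. Alternatives are given at the end. Some genes are not reported here.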

Additional observations from a re-analysis of the deposited data

Results flagged for a closer look

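The share of Rorb neurons gave ratios on opposite sides of 1 in the 2 sexes: the library labelled MR1 knockout stood at 1.03 times the 5XFAD share in female mice (interval 0.348 to 3.38) and at 0.0208 times in male mice (0.000517 to 0.121). With 1 mouse of each sex per library the difference between these ratios was not tested. Nuclei above the mitochondrial limit were outside the main counts, and 7 of 8098 such barcodes in the 5XFAD library met the rest of the rule (0.0864%, 0.0348 to 0.178), 5 of them of the male mouse and none of the female. In the library labelled MR1 knockout 0 of 2148 did, which allows a share of up to 0.140% at 3 counts.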

How the results depend on the processing

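The ratio of shares, 0.106 over all nuclei, was 0.0378 with at least 8 Rorb UMIs, 0.191 after thinning and 0.0208 in male mice. It was 0.298 for the female 5XFAD mouse against the other pool's male and 0.0330 outside cluster 1. In female mice it was 1.03, with an interval of 0.348 to 3.38 that holds 1. The count of 139 higher and 269 lower genes was 30 and 50 after thinning, 24 and 19 in female mice, 23 and 5 for the female 5XFAD mouse against the other male, 32 and 107 in cluster 1 alone, 426 and 708 at a minimum of 50 UMIs, 44 and 100 at 200 UMIs, and 23 and 92 at 2-fold. It was 85 higher genes for the male 5XFAD mouse against the other female, and 143 lower genes under 1% mitochondrial UMIs. Single mice, thinning and cluster 1 leave fewer nuclei, and a higher minimum fewer genes. Of the 23 lists, 17 had a median above 0, where that of all genes was 0.07, and 11 after thinning and 7 in male mice did; the cause was not tested. Log2 ratios are called reversed where their sign changed, whatever their interval. They reversed for Trpm3 (-1.83) and Grik1 (-2.81) with at least 8 Rorb UMIs, and for Trpm3 (-0.22), Grik1 (-3.38) and Epha4 (0.27) after thinning. They reversed for Il1rapl2 (-0.21) and Sema6d (0.29) in female mice, and for Il1rapl2 (-0.71) in cluster 1. In male mice, with 1 nucleus in 1 library, they reversed for Trpm3 (-1.96), Grik1 (-1.47), Kcnq5 (0.35), Kcnh7 (0.88), Kcnt2 (0.24), Unc5d (-0.16) and Psap (-0.41). For the female 5XFAD mouse against the other male they reversed for Kcnq5 (0.68), Kcnh7 (1.04), Kcnt2 (0.78) and Unc5d (-0.37). The 10 higher and 10 lower genes, chosen for 1 direction in both sexes, kept it under each alternative in which they had at least 20 UMIs. TMM and median-of-ratios scaling over the 1996 genes had log2 factors of -0.02 and -0.03, by which ratios were divided, and gave 149 higher and 249 lower, and 157 higher and 243 lower genes. Values within cluster 1, outside it and without a cluster's highest nucleus were chosen after seeing the data. No paired analysis was possible because each group has 1 library. In the 13 nuclei, a count of 0 allows up to 22.3 CPM at 3 counts.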
